A study of Mus musculus with 17 samples.

Results

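Genes of MHC class II antigen presentation were examined in bulk RNA of leukaemic mouse bone marrow (acute myeloid leukaemia, C57BL/6 background). The set was named by symbol and held 9 genes of the 56305 gene identifiers in the count tables: H2-Aa, H2-Ab1, H2-Eb1, H2-DMa, H2-DMb1, H2-DMb2, H2-Oa, Cd74 and Ciita. All 9 symbols were found in both tables. The control libraries carried the genotype Dnmt3aR878H/+;Npm1cA/+, a heterozygous point mutation of the DNA methyltransferase Dnmt3a together with the heterozygous Npm1cA allele, and the Mt1ko libraries carried the same 2 alleles plus a CRISPR-Cas9 knock-down of Mt1, which encodes metallothionein 1. Both groups therefore shared the leukaemic genotype, and no wild-type marrow entered. The labels call each of the 8 control and 9 Mt1ko libraries a technical replicate, and the authors summed them into 3 control samples (libraries 1-3, 7-9 and 14-15) and 3 Mt1ko samples (libraries 4-6, 10-12 and 16-18). The labels do not give the animals, their age, the guide or the sorting of cells, so a p-value here sets a difference against a spread that may be technical.

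MHC class II molecules are pairs of an alpha and a beta chain that hold peptides from endosomes for CD4+ T cells. The invariant chain, encoded by Cd74, guards the groove of new molecules, lysosomal proteases trim it, and H2-M (H2-DMa with H2-DMb1 or H2-DMb2) exchanges its last fragment for a peptide, while H2-O (H2-Oa with H2-Ob) restrains H2-M. Transcription rests on the X and Y boxes of the promoters, where RFX and NF-Y assemble and recruit CIITA, the class II transactivator. Dendritic cells, B cells and activated macrophages are the usual class II expressing cells of the marrow, and monocytes can gain class II under interferon-gamma. C57BL/6 mice have the b haplotype, in which the alpha chain gene of I-E is defective, so I-A, made from H2-Aa and H2-Ab1, is their classical class II molecule.

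The shared promoter boxes are shown for 4 members whose levels ran from none to the highest of the set. RefSeq promoter windows of GRCm38.p6, from 250 bases before to 50 bases after the start, were found for 6 of the 9 members, and those below are H2-Aa (chr17:34287774-34288073, minus strand), H2-Eb1 (chr17:34305617-34305916, plus strand), H2-DMb1 (chr17:34152941-34153240, plus strand) and H2-DMb2 (chr17:34144999-34145298, plus strand). Capitals mark the Y box core ATTGG or its reverse complement CCAAT, the X box core AACNGATG and the palindromic X2 box core TGACGTCA.
H2-Aa: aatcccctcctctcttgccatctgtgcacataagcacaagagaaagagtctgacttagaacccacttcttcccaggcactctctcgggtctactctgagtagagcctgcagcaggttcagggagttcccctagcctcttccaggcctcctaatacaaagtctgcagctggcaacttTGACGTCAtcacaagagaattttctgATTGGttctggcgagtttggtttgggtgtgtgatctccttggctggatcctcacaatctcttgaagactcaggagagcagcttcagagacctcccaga
H2-Eb1: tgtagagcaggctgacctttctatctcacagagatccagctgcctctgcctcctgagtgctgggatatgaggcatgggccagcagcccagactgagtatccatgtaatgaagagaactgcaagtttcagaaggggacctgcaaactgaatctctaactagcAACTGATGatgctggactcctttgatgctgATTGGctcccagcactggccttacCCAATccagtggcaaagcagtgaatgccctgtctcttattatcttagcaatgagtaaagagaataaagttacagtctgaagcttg
H2-DMb1: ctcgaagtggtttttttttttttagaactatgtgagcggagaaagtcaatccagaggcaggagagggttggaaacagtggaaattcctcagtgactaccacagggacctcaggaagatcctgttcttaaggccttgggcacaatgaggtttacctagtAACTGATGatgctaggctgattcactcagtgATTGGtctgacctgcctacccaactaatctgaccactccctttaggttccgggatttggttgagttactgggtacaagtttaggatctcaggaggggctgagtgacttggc
H2-DMb2: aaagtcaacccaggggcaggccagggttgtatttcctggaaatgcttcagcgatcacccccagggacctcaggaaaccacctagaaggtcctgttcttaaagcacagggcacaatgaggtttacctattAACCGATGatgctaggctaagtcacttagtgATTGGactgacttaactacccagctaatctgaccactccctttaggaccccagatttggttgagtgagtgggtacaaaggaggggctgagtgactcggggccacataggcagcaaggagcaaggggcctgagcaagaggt

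Of the 6 members with a window, 3 held both the X and the Y box core, in the same order, all of them shown above. The X box core lay at -89 in H2-Eb1, -92 in H2-DMb1 and -121 in H2-DMb2, counted from the start site at 0, and the Y box core followed after 22, 23 and 23 bases. H2-Aa had no match to the X box core; it held the X2 core at -74 and the Y box core at -48. Of the members not printed, H2-Oa held a Y box core alone, at -43, and of the 2 windows of H2-DMa 1 held a Y box core alone, at -198, and the other held none of the motifs. Both strands were searched, and the 3 motifs do not overlap here. On either strand, the Y box core was found in 37.4% of 32851 promoter windows, the X box core in 2.32%, both together in 0.88% and the X2 core in 1.79%. The motif letters were chosen with these sequences in view, and a match is a description of the letters only. H2-Eb1, with 6 counts in all, and H2-DMb1, the highest of the set, carried the same X box letters, AACTGATG.

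The members ranged from genes found in nearly every library (H2-DMb1, Cd74, H2-DMa and H2-Ab1), through H2-DMb2 and H2-Oa, found in some, to H2-Eb1, Ciita and H2-Aa at or near 0. Levels are CPM, the usual counts relative to the library or sample total, and between genes they are compared as CPM per kb of annotated exon, over the 6 summed samples (mean ± SD, n = 6). H2-DMb1 was highest at 10.8 ± 2.90 CPM per kb, followed by Cd74 at 6.00 ± 4.48, H2-DMa at 2.66 ± 1.22 and H2-Ab1 at 0.536 ± 0.210. H2-DMb2 was at 0.315 ± 0.418, H2-Oa at 0.207 ± 0.129, H2-Eb1 at 0.0051 ± 0.0083 and Ciita at 0.0038 ± 0.0093 CPM per kb, and H2-Aa was at 0. The ranges of every pair of neighbours in this order overlapped between samples. Within a sample the order was firmer at the top: H2-DMb1 exceeded Cd74, Cd74 exceeded H2-DMa and H2-DMa exceeded H2-Ab1 in 6 of 6 samples. H2-DMb2 exceeded H2-Oa in 2 of 6. In bulk RNA, fewer cells of a type and less RNA per cell cannot be told apart.

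**Figure D1:**
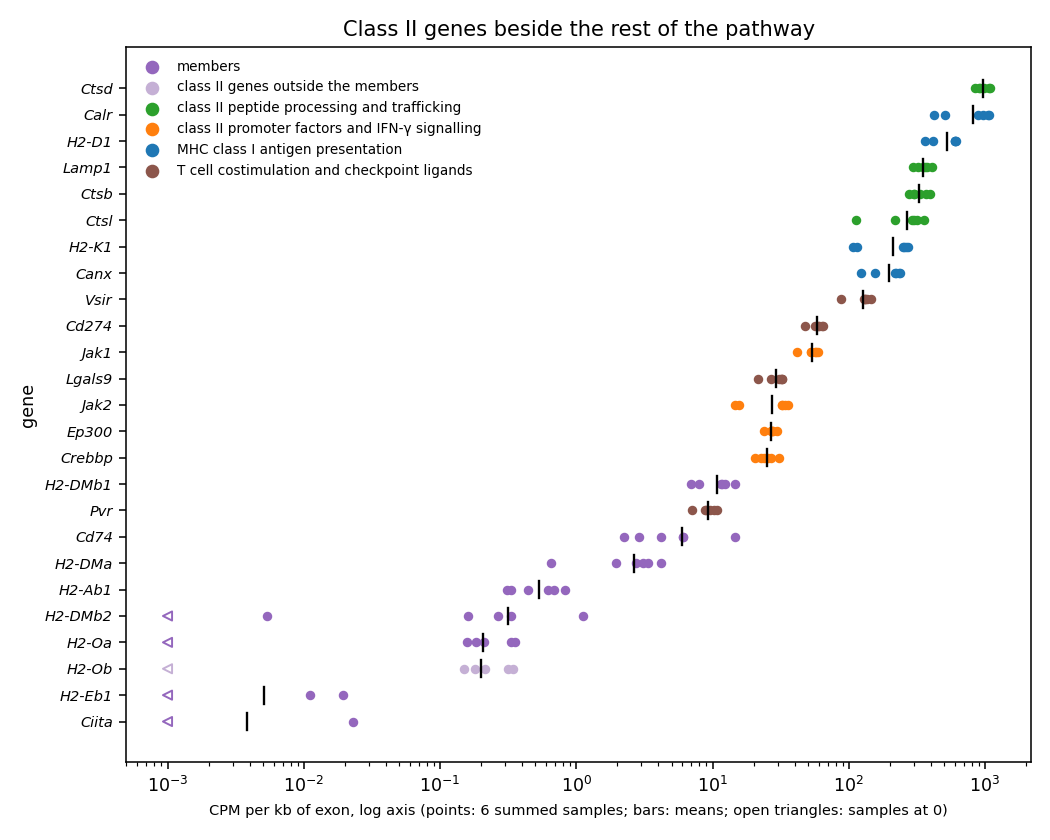
Levels of class II genes (purple) and of the 4 highest genes of each neighbouring list, as CPM per kb of exon on a log axis; points are the 6 summed samples, bars their means and open triangles samples at 0. H2-DMb1 stands at 10.8 CPM per kb, the highest of the class II genes, and H2-Aa, H2-Eb2 and H2-Ea, at 0 in every sample, are not drawn.

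The classical chains were absent or scarce. H2-Aa (ENSMUSG00000036594; GRCm38 chromosome 17, 34282744 to 34287823, minus strand), the alpha chain of I-A, had 0 counts in all 17 libraries, that is 0 of 549509951 counts, which allows a level of up to 0.0055 CPM. H2-Ab1 (chromosome 17, 34257689 to 34269419, plus strand), its beta chain, had 745 counts, in 16 of the 17 libraries. Per kb, H2-Ab1 was at least 367-fold higher than H2-Aa over all libraries, with H2-Aa set at 3 counts over all of them. The chains of the I-A pair were thus unlike in these tables: the beta chain was detected in every summed sample and the alpha chain in none. H2-Eb1 (chromosome 17, 34305867 to 34316674, plus strand), the beta chain of I-E, had 4 counts in Mt1ko library 4, 2 counts in Mt1ko library 18 and 0 in the other 15. H2-Eb2 and the alpha chain gene H2-Ea, both outside the set, had 0 counts in all 17 libraries. Such limits speak to counting error alone, since duplicates made by PCR were not marked.

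H2-Ab1 was 1.13, 1.77 and 1.59 CPM in control samples 1-3, 7-9 and 14-15, and 0.846, 0.793 and 2.14 CPM in Mt1ko samples 4-6, 10-12 and 16-18. The Mt1ko samples lay on both sides of the controls. By library it ran from 0.294 to 2.34 CPM in control (median 1.51) and from 0 to 3.77 CPM in Mt1ko (median 0.906). Libraries of 1 sample differed as much as samples did: in Mt1ko sample 16-18, library 17 held 3.77 CPM from 125 counts and library 18 held 0.587 CPM from 19 counts.

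Cd74 (ENSMUSG00000024610; chromosome 18, 60803848 to 60812652, plus strand), the invariant chain, was present in 16 of 17 libraries. In the same order of samples, control held 10.1, 7.06 and 4.86 CPM, and Mt1ko held 24.5, 3.77 and 10.2 CPM. Mt1ko thus held both the highest and the lowest sample. Library 5 held 47.3 CPM (95% exact binomial interval 45.1 to 49.7, from 1651 counts), against 16.2 and 10.9 CPM in libraries 4 and 6 of the same sample. At the other end, library 12 had 0 Cd74 counts, while libraries 10 and 11 of its sample had 6.32 and 4.86 CPM. Control libraries ran from 0.911 CPM in library 15 to 15.5 CPM in library 2, with a median of 7.35. Over all 6 samples Cd74 stood at place 8186 of 23958 detected genes by mean CPM.

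**Figure D2:**
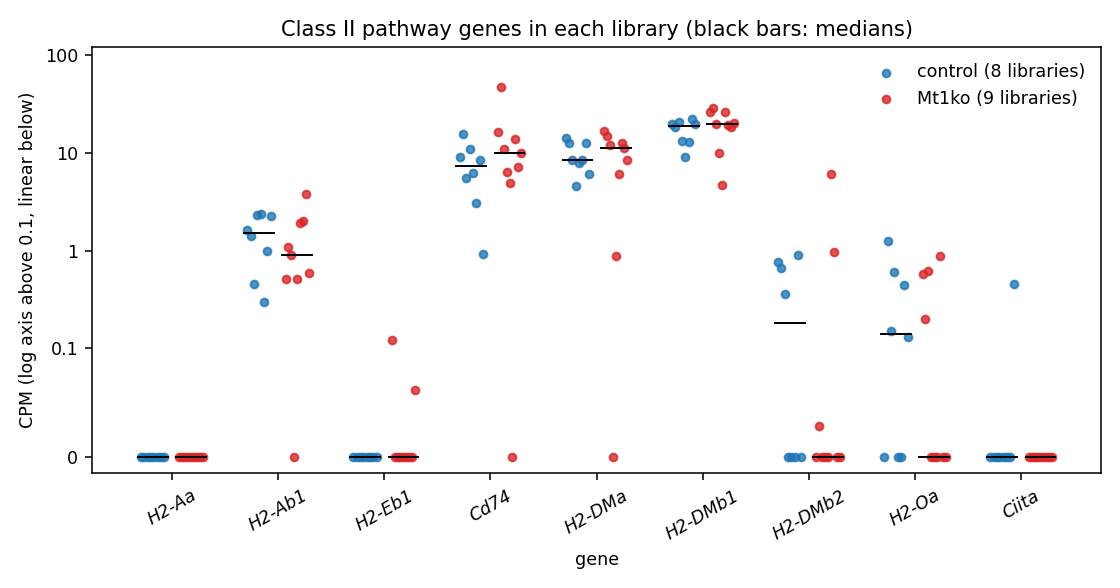
CPM of the 9 genes in each library (points) with group medians (black bars), on an axis that is logarithmic above 0.1 and linear below. The medians of H2-DMb1 are 19.0 CPM in control and 19.7 CPM in Mt1ko, those of Cd74 and H2-DMa lie between 7.35 and 11.1 CPM, and H2-Aa is at 0 in all 17 libraries.

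Of the peptide exchange factor H2-M, both chains were transcribed. H2-DMb1 (ENSMUSG00000079547; chromosome 17, 34153072 to 34160230, plus strand), its beta chain, was the only member with counts in all 17 libraries. Control samples held 19.6, 11.7 and 20.9 CPM of it, and Mt1ko samples 24.7, 13.3 and 19.3 CPM. H2-DMa (ENSMUSG00000037649; chromosome 17, 34119541 to 34139101, plus strand), its alpha chain, was 11.6, 6.78 and 9.40 CPM in control and 14.3, 2.25 and 10.6 CPM in Mt1ko. In both genes the lowest sample of each group was 7-9 in control and 10-12 in Mt1ko, and the highest of all was Mt1ko 4-6. Over the 17 libraries the log2(CPM + 1) values of H2-DMa and H2-DMb1 had a Pearson r of 0.73 (Spearman rho 0.58), and r was 0.62 without libraries 10 to 12; the points share library depth and sample. H2-DMa shares 360 exon bases with Brd2, which runs on the opposite strand and averaged 482 CPM in control. The kit marks strand, and how the counting used strand is not stated in the labels or headers, so the part of Brd2 reads in H2-DMa was not tested.

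The other beta chain, H2-DMb2 (ENSMUSG00000037548; chromosome 17, 34143307 to 34151555, plus strand), was detected in 7 libraries only. Library 12 held 183 of its 295 counts, or 6.11 CPM, and libraries 10 and 11 of the same sample held 0. Summed, control held 0.582, 0 and 0.467 CPM and Mt1ko 0.0094, 1.96 and 0.281 CPM. The longest protein-coding transcripts of H2-DMb1 and H2-DMb2 matched at 94.6% of 1219 aligned bases, and 15.8% of the 75-base stretches of H2-DMb1 transcripts also occur in H2-DMb2. Counts of the pair are uncertain where reads could be split between them; in library 12 H2-DMb1 was at 26.3 CPM, above libraries 10 and 11 at 9.99 and 4.68 CPM.

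The chains of H2-O, the inhibitor of H2-M, were scarce. H2-Oa (chromosome 17, 34092340 to 34095234, plus strand) had 162 counts, in 5 control and 4 Mt1ko libraries. Control samples held 0.497, 0.224 and 0.296 CPM, Mt1ko samples 0.470, 0 and 0.259 CPM. Its partner H2-Ob, outside the set, had 573 counts in 13 libraries and averaged 1.46 ± 0.562 CPM over the control and 0.709 ± 0.621 CPM over the Mt1ko samples (SD, n = 3 each). Neither had a count in libraries 10 to 12.

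Ciita (ENSMUSG00000022504; chromosome 16, 10480059 to 10528418, plus strand), the class II transactivator, was detected in 1 library. Control library 15 held all 14 counts, or 0.456 CPM, and the other 16 libraries held 0. In Mt1ko, 0 of 292412920 counts allows up to 0.010 CPM. Of the exon bases of Ciita, 329 are shared with Dexi on the opposite strand, a gene with 1289 counts in all, so these 14 counts cannot be placed with certainty. In library 15 H2-Aa and H2-Eb1 stayed at 0, and Cd74 was at its lowest among the control libraries.

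Libraries held 27124722 to 38645072 counts and summed samples 64247249 to 106407001. Libraries 10 to 12 stood apart in quality, with 21.9% to 30.2% of counts from mitochondrial ribosomal RNA against 4.58% to 11.2% in the other 14, and with 11548 to 13174 detected genes against 14823 to 17739. They held the only zeros of H2-Ab1 and H2-DMa (library 10) and of Cd74 (library 12). Mt1, the target, was 41.8 to 87.2 CPM in 8 Mt1ko libraries and 347.5 to 471.3 CPM in control, but 326.2 CPM in library 6, which is labelled Mt1ko and goes against that label. Of the library counts within a sample, the chi-square per degree of freedom against equal CPM was 170 for Cd74, 63.4 for H2-DMb1, 45.5 for H2-DMa and 22.1 for H2-Ab1, where counting noise alone gives about 1. The median over 13172 genes with at least 500 counts was 55.2.

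**Figure D3:**
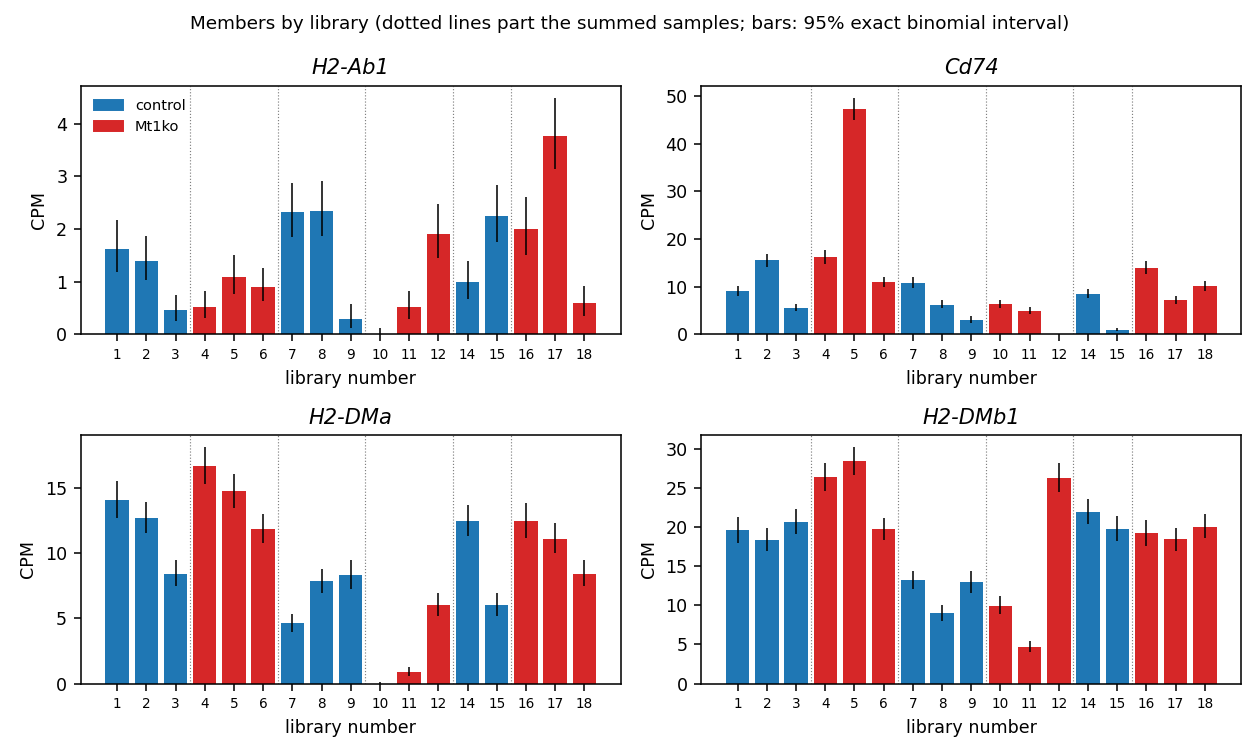
CPM of H2-Ab1, Cd74, H2-DMa and H2-DMb1 in each of the 17 libraries, with 95% exact binomial intervals that cover counting error only; dotted lines part the summed samples and colours give the group. Library 5 stands at 47.3 CPM of Cd74 and library 12 at 0, while H2-DMb1 has counts in every library.

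The class II region itself was not silent. Between H2-Oa and H2-Ea on chromosome 17 (34092340 to 34344645, 252.3 kb), 14 protein-coding genes were in the tables, 9 of class II and 5 others. All 5 others averaged at least 10 CPM in control: Brd2, a bromodomain protein, at 482 ± 66.5 CPM, the peptide transporter genes Tap1 at 62.7 ± 11.0 and Tap2 at 68.9 ± 12.1, and the immunoproteasome subunits Psmb8 at 59.9 ± 19.5 and Psmb9 at 14.5 ± 2.04 CPM (SD, n = 3). Of the 9 class II genes, H2-DMb1 alone reached 10 CPM and 5 were under 1 CPM. Transcripts were found along most of the region, up to H2-Ab1, while H2-Aa, H2-Eb1 and H2-Eb2 at the far end had 6 counts between them.

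**Figure D4:**
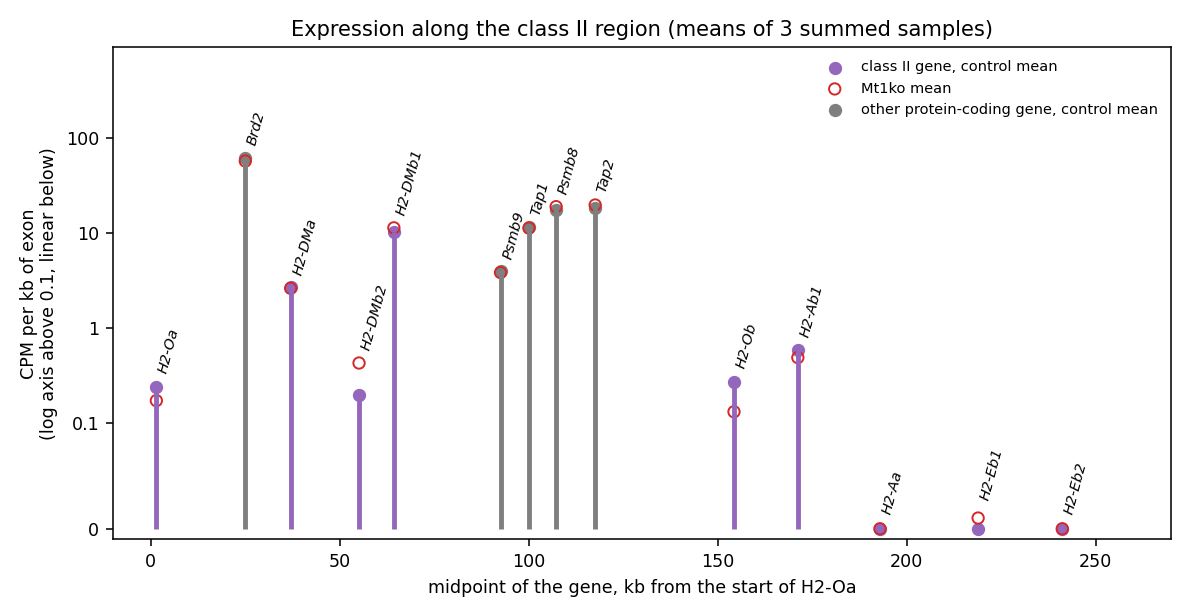
Control means (filled) and Mt1ko means (open red) of 14 protein-coding genes by distance from the start of H2-Oa, in CPM per kb of exon on an axis that is logarithmic above 0.1 and linear below. The 5 genes that are not of class II (grey) are at 3.84 CPM per kb or more in both groups, and H2-Aa, H2-Eb1 and H2-Eb2 lie at or near 0.

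MHC class I, which presents cytosolic peptides on most nucleated cells, was high in the same samples. H2-D1 averaged 1392 ± 285 CPM over control and 1343 ± 348 over Mt1ko samples, H2-K1 616 ± 243 and 619 ± 265, and the light chain B2m 314 ± 108 and 293 ± 119 CPM (SD, n = 3 each). Per kb, H2-D1 exceeded H2-Ab1 by 598-fold to 1813-fold over the 6 samples. It exceeded H2-DMb1 by 40.7-fold to 59.4-fold, a narrower span. Of 23 genes in a list of class I presentation, 21 averaged at least 10 CPM in control. The list also holds the endoplasmic reticulum folding genes Calr, Canx and Pdia3, at 2355 ± 806, 959 ± 197 and 512 ± 204 CPM in control (SD, n = 3). The summed level of the list was 8684, 4879 and 8003 CPM for control and 8635, 4320 and 8319 CPM for Mt1ko. It was lowest in 7-9 and 10-12, as for H2-DMa and H2-DMb1. Much of this sum is Calr, Canx and Pdia3 and is not particular to class I. Per kb, H2-D1, H2-K1 and Calr were each lowest in 7-9 among controls and in 10-12 among Mt1ko samples.

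Lysosomal proteases were also high. Of 21 genes in a list of class II peptide processing and trafficking, which also holds adaptor, Rab and ubiquitin ligase genes, 19 averaged at least 10 CPM in control, led by the proteases Ctsd at 2208 ± 262.6, Ctsb at 1956 ± 369 and Ctsl at 1753 ± 295 CPM (SD, n = 3). Ctss, which removes the invariant chain in many antigen-presenting cells, was 345 ± 31.3 CPM, and the thiol reductase Ifi30 was 157 ± 27.1 CPM. Marchf1 and Marchf8, ubiquitin ligases that send class II molecules to degradation, were 48.4 ± 7.43 and 70.1 ± 12.3 CPM. Cd83, a dendritic cell protein that opposes Marchf1, was at 0 in the 3 control samples.

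RFX and NF-Y subunits, which bind the class II promoter, were transcribed also where Ciita had no count. Of the 24 genes in a list of promoter factors, other regulators and interferon-gamma signalling genes, 20 averaged at least 10 CPM in control. The RFX subunits were 8.33 ± 0.792 CPM for Rfx5, 28.2 ± 0.722 for Rfxap and 12.8 ± 0.648 for Rfxank, and the NF-Y subunits 42.3 ± 3.86 for Nfya, 36.3 ± 2.91 for Nfyb and 52.9 ± 1.62 for Nfyc (SD, n = 3). The interferon-gamma receptor genes Ifngr1 and Ifngr2 were 140.5 ± 19.8 and 125.9 ± 13.2 CPM, and Jak1 was 401 ± 16.6 CPM. Irf1, an interferon-induced factor that acts on a Ciita promoter, was 14.2 ± 5.62 CPM. Nlrc5, the relative of CIITA that drives class I genes, was 111 ± 10.6 CPM, against 0.073 ± 0.126 CPM of Ciita in the same control samples.

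Markers of B cells and most of those of dendritic cells were scarce. Of 17 B cell markers in the tables, 8 were at 0 in all libraries, among them Ms4a1 and Pax5, and 15 averaged under 1 CPM in control; the highest were Ighm at 2.58 ± 2.07 and Igkc at 1.34 ± 1.17 CPM. Their summed level was 1.48 to 7.47 CPM in control and 3.24 to 8.42 CPM in Mt1ko. Of 16 dendritic cell markers, 11 averaged under 1 CPM in control, and Clec9a, Cd209a and Cd300c were at 0 in all libraries. The summed level of the list was 70.1 to 98.8 CPM in control and 55.6 to 97.1 CPM in Mt1ko. It came mostly from Tcf4 (58.7 ± 7.45 CPM in control), which other cells also express. Clec10a averaged 8.04 ± 2.73 and Itgax 6.76 ± 6.04 CPM in control, with counts in 17 and 16 libraries. Irf4 and Flt3 averaged 4.82 and 2.22 CPM in control, with counts in 12 and 10 libraries. Monocyte and macrophage markers were mixed: in control, 12 of the 20 had a mean of 10 CPM or more, and 6 stayed below 1 CPM, including the macrophage complement genes C1qa, C1qb and C1qc. The highest were Lyz2 at 3641 ± 1999 and Itgam at 3110 ± 147 CPM in control, and the list had a summed level of 8189 to 11583 CPM in control and 7696 to 9639 CPM in Mt1ko. Mast cell and basophil markers summed to 246.5 to 875.0 CPM in control and 172 to 4518 CPM in Mt1ko, highest in sample 10-12. Their part in the low H2-DMa of that sample was not tested.

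Between Mt1ko and control, no class II gene was called. edgeR's quasi-likelihood test on the 3 against 3 summed samples called 0 of 16666 genes at an adjusted p under 0.05 (0%), and 0 of the 6 members that passed the filter on low counts; H2-Aa, H2-Eb1 and Ciita did not pass it. Without adjustment, p was under 0.05 for 171 of all genes (1.03%) and for 0 members. The groups did not overlap in 7.81% of all genes tested and in 0 of the 6 members. DESeq2 called 1 gene, Mt1, and no member. The targeted gene Mt1, at -1.85 on the log2 scale, also missed the edgeR threshold (adjusted p = 1.00), so a missed threshold does not show that a gene did not change.

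The members' fold changes were small beside their intervals. H2-DMb1 averaged 17.4 ± 5.00 CPM for control against 19.1 ± 5.67 for Mt1ko (SD, n = 3 each), a log2 fold change of 0.24 (SE 0.29, 95% interval -0.43 to 0.91), the one member whose interval lay within 1 log2 unit of 0. H2-DMa was 9.26 ± 2.42 and 9.05 ± 6.18 CPM, with a log2 fold change of 0.03 (SE 0.57, 95% interval -1.28 to 1.34). H2-Ab1 was 1.50 ± 0.328 and 1.26 ± 0.761 CPM, with -0.16 (SE 0.74, 95% interval -1.88 to 1.57). For Cd74 the means were 7.34 ± 2.64 and 12.8 ± 10.6 CPM, with a log2 fold change of 0.87 (SE 0.60, 95% interval -0.52 to 2.27) and the smallest unadjusted p of the members, 0.19 in edgeR's quasi-likelihood test. The values of H2-DMb2 (1.35, 95% interval -3.34 to 6.04) and H2-Oa (-0.43, 95% interval -4.27 to 3.40) say little at these counts. Leaving out 1 summed sample turned the direction of 4 members: H2-DMb2 went to -1.24 and H2-Oa to 0.14 without Mt1ko 10-12, H2-Ab1 to 0.070 without Mt1ko 4-6 and 0.037 without Mt1ko 10-12, and H2-DMa to -0.46 without Mt1ko 4-6, -0.066 without Mt1ko 16-18 and -0.16 without control 7-9. Adjusted p was 1.00 for each of the 6 (edgeR).

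**Figure D5:**
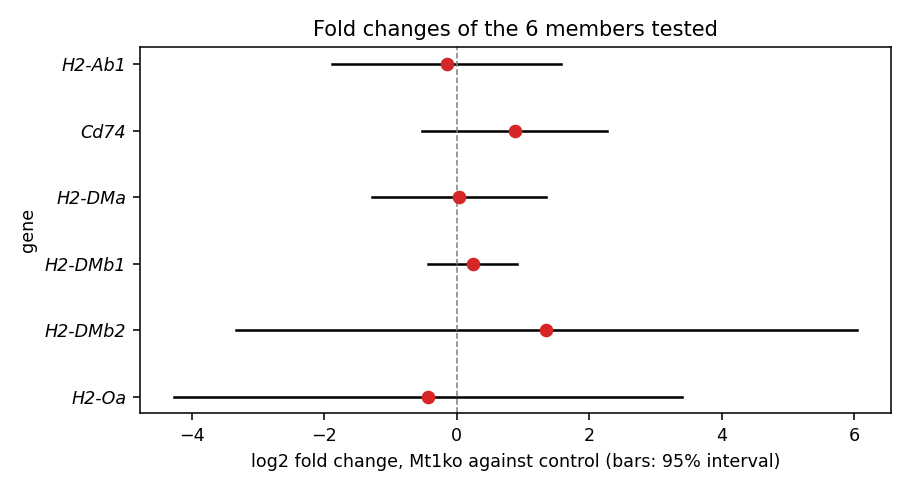
Log2 fold changes of the 6 tested members, Mt1ko against control, on 3 summed samples each, with 95% intervals from edgeR's quasi-likelihood test. All 6 intervals include 0, and that of H2-DMb1 (-0.43 to 0.91) is the narrowest.

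The size of the Cd74 difference rested mostly on sample 4-6, and its direction was the same in all 18 alternatives. Leaving that sample out gave a log2 fold change of 0.02, with library 5 left out of its sum it was 0.37, and without Mt1ko sample 10-12 it was 1.28 (edgeR adjusted p = 1.00 in each). It was 1.14 with library 6 left out of its sum. With libraries 10 to 12 left out as well it was 1.58, where edgeR's quasi-likelihood test gave an unadjusted p of 0.013 and an adjusted p of 0.999. Among libraries with the same index sequence at the second position, Cd74 averaged 9.43 CPM over 5 control libraries and 24.8 CPM over 3 Mt1ko libraries for one index, the Mt1ko ones all of sample 4-6. For the other shared index it averaged 4.14 CPM over 3 control libraries and 6.29 CPM over 4 Mt1ko libraries. For H2-DMb1 the same means were 16.2 and 24.9 CPM, then 18.2 and 15.1 CPM, so its direction differed between the indexes. Another index was carried by 2 Mt1ko libraries only. At most 2 samples stood behind each mean, so no p is given.

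Genes of the neighbouring lists were not called either. Of the 6 tested members 4 were higher and 2 lower in Mt1ko (median log2 fold change 0.13), where over all 16666 genes 8051 were higher and 8615 lower (median -0.01). Class I genes were higher in 18 of 23 (median 0.08), peptide processing and trafficking genes in 15 of 20 (0.06), and promoter factors and interferon-gamma signalling genes in 9 of 23 (-0.02). Mast cell and basophil markers were higher in 9 of 10 (1.66), and neutrophil markers in 4 of 10 (-0.33). Mast cell and basophil markers summed to 414, 4518 and 172 CPM in Mt1ko samples 4-6, 10-12 and 16-18. In control samples 1-3, 7-9 and 14-15 they summed to 247, 875 and 709 CPM, so Mt1ko 10-12 alone lay above every control. In these lists 0 genes were called in either direction (edgeR adjusted p under 0.05). Of the class I genes, 1 had an unadjusted edgeR p under 0.05, the proteasome activator subunit Psme2, at 0.61 (95% interval 0.09 to 1.12), and its groups did not overlap. Over all 16666 genes, the unadjusted edgeR p was under 0.05 in 1.03% and the groups did not overlap in 7.81%. The largest fold change among the RFX and NF-Y subunits was 0.54 for Rfx5 (SE 0.28, 95% interval -0.11 to 1.18). Of the 23 tested genes of its list, Rfx5 alone had groups that did not overlap.

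Across the 17 libraries, the genes most like the class II pattern were sought, the pattern being the mean centred log2(CPM + 1) of H2-Aa, H2-Ab1, H2-Eb1 and Cd74. With H2-Aa at 0 and H2-Eb1 near it, this was in effect the mean of H2-Ab1 and Cd74, whose own Pearson r over the libraries was -0.11, so the 4 genes had no common pattern. The values were not scaled to equal spread. The extremes of the mean, 0.62 in library 5 and -0.66 in library 12, were the libraries with the highest and the lowest Cd74. The highest likeness among 9122 genes was that of Lgals1, which encodes galectin-1, at r = 0.93, followed by Vat1, Arf6, Npm1, Mcub, Mpnd, Cox6c, Pld4 and Ppm1l, down to 0.85, with Pld4 listed under 2 identifiers that hold the same counts. Libraries share depth and sample, and between 3 and 5 of these 10 recurred among the 10 highest when the measure or the libraries were changed. None of them was a dendritic cell or B cell marker of the lists above. Only genes with a mean of at least 5 CPM were searched, and most of those markers lay below that. Their absence therefore says nothing about these cells.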

How the data were processed

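Total RNA from bone marrow was made into libraries with a SMARTer stranded Pico kit, per the labels' protocols, and Trimmomatic 0.35 and RSEM 1.3.3 were used with GRCm38 and mm10, per the submitters' processing notes; which step each served, the aligner and the handling of strand are not stated there. The deposited values are raw whole-number counts for 17 libraries and for 6 sums, each of which equalled the sum of the libraries its header names in every gene. Groups came from the sample titles. Library 13 of the numbering was not analysed here. The members, lists and tests were chosen with earlier results of these data known. CPM are relative to the sample or library total, without scaling factors. Coordinates and union exon lengths came from the GENCODE vM21 annotation of GRCm38, and promoter windows from RefSeq; isoform use and effective length were not modelled. Where a symbol had 2 identifiers the one with more counts was used.

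The main test was edgeR 4.0.16 (R 4.3.3) on the 6 sums: filterByExpr, TMM, quasi-likelihood F test with group alone, Benjamini-Hochberg adjusted p under 0.05 over all genes. Standard errors were taken as |log2 fold change| over the square root of the F statistic. The main test was also run on simulated counts with planted changes, and how many it recovered is not given here. Alternatives used DESeq2 1.42.0, limma 3.58.1 and the other settings given in the closing section; leaving out library 5 was chosen after its Cd74 level was seen. A level at 0 is limited by 3 counts of the total, and 95% intervals of single libraries are exact binomial. Named were all members, H2-Ob, H2-Eb2 and H2-Ea, and the 10 genes most like the pattern with a mean of at least 5 CPM. The plan to name the 2 to 4 highest genes of each list was not followed throughout. Some high genes, such as Ep300 and Crebbp, were passed over, and no neutrophil or mast cell marker was named. The remaining genes named were chosen for known roles after their values were seen.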

Additional observations from a re-analysis of the deposited data

Results flagged for a closer look

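Of 14 groups of library values of the members, 3 had a single library standing well apart. The rule flags about 1 in 20 where values are independent and normally spread. Here libraries share samples and some groups are mostly 0, so that rate does not apply and the flags are a description only. In Mt1ko, library 12 held 6.11 CPM of H2-DMb2 (183 counts) and the next highest Mt1ko library 0.959 CPM. Also in Mt1ko, library 5 held 47.3 CPM of Cd74, and the next highest 16.2 CPM. In control, library 15 held 0.456 CPM of Ciita (14 counts), and the other control libraries 0.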

How the results depend on the processing

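No member was called in any alternative: over 100 fold changes of the 6 tested members, the lowest adjusted p was 0.98, and the direction turned in 13. For H2-DMa the log2 fold change was -0.0030 with upper quartile scaling, -0.13 with limma-voom, -0.017 with the second index as a covariate over 17 libraries and -0.73 with the summed sample as a random effect, and it ran from -0.46 to 0.47 when each summed sample was left out. Leaving out each sample gave -0.69 to 0.070 for H2-Ab1, -1.24 to 1.95 for H2-DMb2 and -1.36 to 0.14 for H2-Oa. With library 6 left out of its sum and libraries 10 to 12 left out, H2-Ab1 was at 0.024, H2-DMb2 at -1.20, H2-DMa at 0.55 and Cd74 at 1.58. The count of genes called over all genes was 1, against 0, with DESeq2, with 17 libraries entered singly, with the summed sample as a random effect, with library 6 left out of its sum, and with libraries 6 and 10 to 12 left out. In these 5 settings Mt1 passed the threshold, with log2 fold changes of -1.84, -1.90, -2.08, -2.30 and -2.21; the cause was not tested. Of the 10 genes most like the class II pattern, 4 recurred with Spearman rho, 4 with a pseudocount of 0.1 CPM, 3 without libraries 10 to 12, 5 with centring within groups and 5 without library 5. TMM scaling, or leaving mitochondrially encoded genes out of the total, moved each group mean of the members that was above 0 by less than 1 SD. That is a loose measure, since the SD of 3 samples was wide, as for Cd74 in Mt1ko (12.8 ± 10.6 CPM). Without mitochondrially encoded genes, H2-DMb1 in Mt1ko went from 19.1 to 21.8 CPM and H2-DMb2 in Mt1ko from 0.750 to 1.01 CPM. No paired analysis was run. The replicate numbers run serially over both groups and the labels name no pairs, so whether samples were paired is not known. Any spread shared within pairs would count as error in the unpaired test. H2-Eb1 has 6 counts in all, and for H2-DMb2, H2-Oa and Ciita the chi-square per degree of freedom between libraries of a sample was 53.8, 18.8 and 15.3, where counting noise gives about 1.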

Other observations

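Ligands that T cells meet beside the class II molecule were unevenly present. Of 15 such genes in the tables, 10 averaged at least 10 CPM in control. The inhibitory ligands were the highest, Vsir (VISTA) averaging 663 ± 15.5 CPM for control against 614 ± 153 for Mt1ko, and Cd274 (PD-L1) 212.5 ± 7.24 against 212.0 ± 33.97 CPM (SD, n = 3 each). The costimulatory ligands Cd80 and Cd86 were 29.3 ± 4.95 and 25.1 ± 8.53 CPM in control. Cd40, which licenses antigen-presenting cells, was 0.410 ± 0.131 CPM in control, and Cd70 had 0 counts in all libraries. None of the 13 tested was called (edgeR adjusted p under 0.05), with 6 higher and 7 lower.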
